A study of Mus musculus with 16 samples.

Results

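The cytoplasmic ribosomal protein genes were taken as the entries whose symbol is Rpl or Rps followed by a number or by P0 to P2, with an optional a, l or x, together with Rpsa. Ribosomal S6 kinases and entries named as pseudogenes were left out. This gave 89 of 21455 named entries, 53 of them named for the large subunit and 36 for the small subunit. All 89 were read at a normalized count of at least 1 in all 16 libraries, so the filter on low values removed none. In the GENCODE annotation 83 are protein coding, spread with the rest over 19 chromosomes. The other 6 are annotated as processed pseudogenes (Rpl32l, Rpl6l, Rps12l1, Rps3a2, Rps3a3 and Rps4l). 7 are paralogs of a core gene (Rpl3l, Rpl7l1, Rpl10l, Rpl22l1, Rpl39l, Rps27l and Rps4l, which is also among the pseudogenes), and the remaining 77 are called core genes below.

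RNA was sequenced from E14tg2a cells, a mouse embryonic stem cell line, in 8 groups of 2 libraries. WT and DKO cells were sampled in 2i, here N2B27 with PD0325901 at 1 µM to block MEK, CHIR99021 at 3 µM to block GSK3β, and LIF at 1000 U/mL. WT, DKO and P14 cells were sampled at day 2 and day 4 of induction towards epiblast-like cells on fibronectin with bFGF (12 ng/mL). The series names a knockout in cis of Prdm14, a regulator of naive pluripotency, and cells that overexpress it; DKO and P14 were matched to these by elimination, and neither the deleted elements, the transgene nor the number of clones is given in the sources used here. Prdm14 read 1083 and 1096 normalized counts in WT 2i and 1803 and 1803 in the libraries labelled DKO in 2i, 625 and 712 against 1347 and 1273 at day 2 and 219 and 166 against 595 and 571 at day 4. It was therefore higher, not lower, in the libraries labelled DKO at every stage. The P14 libraries read 11036 and 10669 at day 2 and 7054 and 8014 at day 4. The labels do not state that the paired libraries of a group are separate cultures. The p-values below therefore cover the spread between these libraries, which may be technical.

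Recovered depth was 20696341 to 32710591 reads per library. The 4 general stem cell markers (Pou5f1, Sox2, Sall4, Lin28a) had a summed level of 8250.2 to 16789.7 normalized counts. Pou5f1 added almost nothing to it, at 0.0 to 27.7 over the libraries and 0.0 and 1.81 at WT day 4. The reason for these low Pou5f1 values was not tested. In WT, means in 2i and at day 4 were 1137 and 8307 for Lin28a, 7965 and 4792 for Sall4, and 3740 and 3288 for Sox2. The 4 naive markers (Esrrb, Klf4, Nanog, Tfcp2l1) summed to 47456 to 51342 in WT 2i, 4539 to 4655 at WT day 2 and 759 to 822 at WT day 4; DKO libraries read 56877 to 57582, 20102 to 20208 and 7951 to 7985 at the same stages, and P14 libraries 8592 to 9397 and 4581 to 4948. The 4 markers of epiblast-like cells (Fgf5, Pou3f1, Otx2, Dnmt3b) summed at day 2 to 3420.0 to 3731 in WT, 1012 to 1160.0 in DKO and 1207 to 1239 in P14, and at day 4 to 2769.8 to 2822.0, 2392 to 2438 and 1060.3 to 1261; in 2i they summed to 851 to 904 in WT and 412 to 448 in DKO. Dnmt3b and Pou3f1 made up most of this sum (means of 2515 and 875 at WT day 2), and Fgf5 and Otx2 did not follow it throughout. Fgf5 had means of 17.1 in WT and 39.1 in DKO at day 2, and 1.08 and 59.8 at day 4. Otx2 had 169 and 83.8 at day 2, and 6.75 and 64.0 at day 4. The 5 primitive endoderm markers (Gata4, Gata6, Sox17, Foxa2, Sox7) summed to 60.0 to 94.9 in WT 2i and 80.6 to 96.6 in DKO 2i. During induction they summed to 989.6 to 1254 in WT, 1221 to 2358 in DKO and 80.5 to 209 in P14. They did not move together. Gata6 had means of 602 in WT and 830 in DKO at day 2, and 229 and 1368 at day 4. Sox17 was lower in DKO, with 339 and 209 at day 2, and 436 and 335 at day 4. Gata4 had 146 and 118 at day 2, and 200 and 468 at day 4. Foxa2 had 39.4 and 63.85, and 126 and 148. Sox7 read 0.0 to 22.7 over the libraries. Of 6 fibroblast markers 3 were in the table, summing to 10.6 to 133. The part of these markers in the results below was not tested, and in RNA from whole cultures fewer cells of a type and less RNA per cell cannot be told apart.

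Cytoplasmic ribosomes are built from a large and a small subunit, each a scaffold of ribosomal RNA carrying a fixed set of proteins. Most ribosomal protein mRNAs begin with a 5′ terminal oligopyrimidine stretch, an unbroken run of C and T in the DNA, through which mTOR and the RNA-binding protein Larp1 control their translation. Their mRNA levels are known to be high and similar across cell types, while a few paralogs are expressed in restricted tissues. Rpl10l and Rpl39l, autosomal copies of the X-linked Rpl10 and Rpl39, are best known from male germ cells, where the X chromosome is silenced during meiosis.

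Stretches near the annotated starts of 2 paralog pairs and of 2 members called lower in DKO cells at day 2 are shown because the results below turn on these genes. RefSeq promoter windows (GRCm38.p6, 250 bases before to 50 after the annotated start) were found for 64 members, some with several starts. Each line is a 30-base window from such a promoter, on the gene's strand, with the longest unbroken C/T run between 30 bases before and 50 after the start in capitals. For a gene with several starts, the start with the longest run is shown. Run lengths of different genes can therefore rest on different numbers of starts.
Rpl10: cgtgagcaggcgtgggagcgTCTCTTTTCC
Rpl10l: agaaatttggCCTCCattttgcggctggcg
Rpl39: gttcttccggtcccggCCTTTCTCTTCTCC
Rpl39l: acacccactgCCTCTCCCTagctcccaggc
Rps2: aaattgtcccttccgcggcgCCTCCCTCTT
Rpl13: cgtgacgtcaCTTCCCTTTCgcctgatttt
The windows lie at chrX:74270836-74270865 (plus strand) for Rpl10, chr12:66284392-66284421 (minus strand) for Rpl10l, chrX:37085173-37085202 (minus strand) for Rpl39, chr16:10170192-10170221 (plus strand) for Rpl39l, chr17:24720083-24720112 (plus strand) for Rps2 and chr8:123102324-123102353 (plus strand) for Rpl13. The run was 10 bases long in Rpl10 and 5 in Rpl10l, and 14 in Rpl39 and 9 in Rpl39l; in Rpl10, Rpl39 and Rps2 it reached the end of the RefSeq promoter sequence and may continue past it. Counting the annotated start as base 1 and the base before it as -1, the first base of the run was at 41 in Rpl10, 37 in Rpl39, 41 in Rps2, -26 in Rpl39l, -16 in Rpl13 and -10 in Rpl10l. None of these 6 runs begins at the annotated start, so they are not shown to be the terminal stretch of the mRNA. A run of at least 8 bases was found in 69.7% of the 76 member windows and in 29.0% of all 32851 windows in the RefSeq table. Among fixed motifs searched on both strands, CCGGAAG, the core letters bound by ETS factors, was in 35.5% of member windows and 8.86% of all windows. CTCTTTC was in 27.6% and 8.16%, AAGATGG in 15.8% and 6.34%, the TATAAA box in 10.5% and 13.6%, and CACGTG, the E-box letters bound by Myc and others, in 10.5% and 7.15%. No one of these motifs contains another, and a match is a description of the letters only.

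Together the 89 members took 4.76% to 6.19% of the reads on named entries, with a median of 5.61% over the 16 libraries. The share was 5.65% and 5.43% in WT 2i, 5.75% and 5.46% at WT day 2 and 5.58% and 5.72% at WT day 4. In the libraries labelled DKO it was 5.63% and 5.74% in 2i, 4.76% and 4.77% at day 2 and 5.08% and 5.54% at day 4, and in P14 5.32% and 6.10% at day 2 and 6.19% and 5.86% at day 4. Both DKO day 2 libraries were below all 14 others, whereas the WT stages overlapped one another. No test of this share was made; an exact permutation test of 2 libraries against 2 cannot go below p = 0.333. The 163 entries named as ribosomal protein pseudogenes took a further 0.915% to 1.33% of reads, and mitochondrially encoded genes 0.688% to 1.79%.

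**Figure D1:**
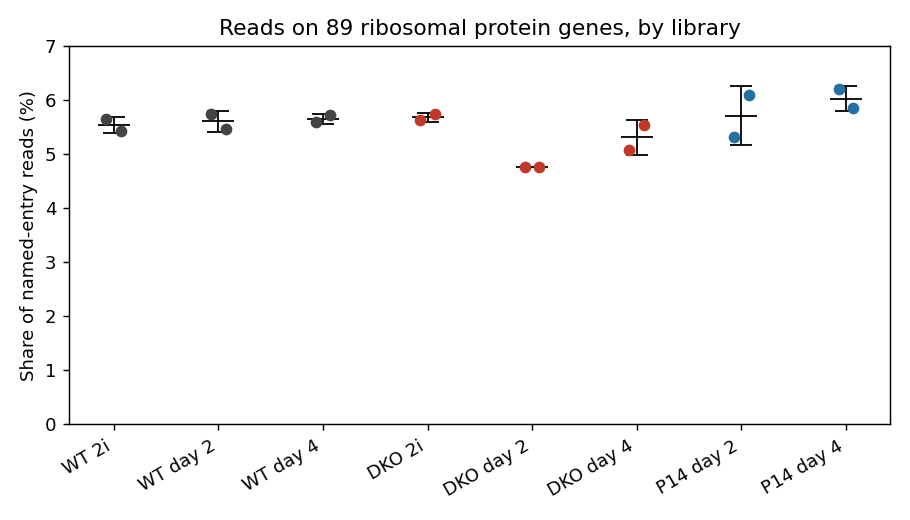
Share of named-entry reads (percent, vertical axis) on the 89 ribosomal protein genes in each library (points), by group, with the group mean and SD (bars, n = 2). The 2 DKO day 2 libraries lie at 4.76% and 4.77%, and the other 14 between 5.08% and 6.19%.

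Core genes spanned a wide range of levels, and the group means of most of them differed by under 1.5-fold. Per kilobase of the principal transcript the mean normalized count was highest for Rpl41, a very short basic protein of the large subunit, at 104687, and the median over the 77 core genes was 16233. Rpl13, Rps2, Rps18 and Rpl18 followed at 69815, 61842, 61668 and 43608. The lowest core genes were Rpl37a (1574), Rpl34 (2019), Rpl29 (2172), Rps29 (2243) and Rpl39 (3253). The range from Rpl37a to Rpl41 was 66.5-fold. Below all core genes lay 5 members outside the core, Rpl3l at 18.1, Rpl32l at 111, Rpl39l at 415, Rpl10l at 522 and Rpl22l1 at 1027 per kilobase. Between groups the ratio of the highest to the lowest group mean had a median of 1.46 over the 77 core genes. Of these 62.3% stayed under 1.5, and the highest ratio was 6.09. Over the 89 members, which were not limited by level, the median was 1.47 and 57.3% stayed under 1.5. For the 3584 named entries with a mean of at least 1000 these values were 1.59 and 39.0%. The summed level of core large subunit genes over that of core small subunit genes was 1.36 to 1.52 in all 16 libraries.

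Ribosomal protein genes have many processed copies, and the authors' handling of reads with several best places is not given in the sources used here. Of the 89 members 86 shared at least 1 stretch of 50 bases with a transcript of another gene in GENCODE, and in 43 members under 20% of such stretches were shared. The share was 100% in Rps12l1, 90.2% in Rps3a2, 81.1% in Rpl36, 76.4% in Rpl6l, 71.0% in Rps3a1 and 65.2% in Rps3a3, the 6 highest, and their values may hold reads of other genes. It was 0% in Rpl39l and 7.6% in Rpl10l. It was 19.4% in Rpl37a, 7.78% in Rpl34 and 18.9% in Rps29, which are among the lowest core genes. These shares count the stretches of all annotated transcripts of a member, as in Rpl34, where 218 of 2802 were shared. A low share therefore does not show that the main mRNA is largely unique. Its share alone is not given here.

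The wild-type course asks how these genes behave from 2i to day 4 of induction towards epiblast-like cells. From 2i to day 2, 2 members rose and 3 fell, 5.62% of 89 against a background of 23.4% of all 21450 genes tested. From day 2 to day 4, 4 rose and 7 fell (12.4%, background 33.0%), and from 2i to day 4, 3 rose and 8 fell (12.4%, background 40.6%). Among the 3584 genes with a mean of at least 1000 the called shares were 29.6%, 43.8% and 49.1%. The median log2 change of the members was -0.02, -0.11 and -0.15 in that order, and 0.03, 0.02 and 0.01 over all genes tested. From 2i to day 4 the members' median was 0.009 with scaling to the total of named entries and 0.010 with library size without these genes. Such scaling moves all genes of a library together, and the all-gene median under it is not given here. These values therefore do not show where the members lay relative to all genes. The 3 comparisons share libraries. Of the 77 core genes 2, 7 and 4 were called, and of the 7 paralogs 3, 4 and 5.

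**Figure D2:**
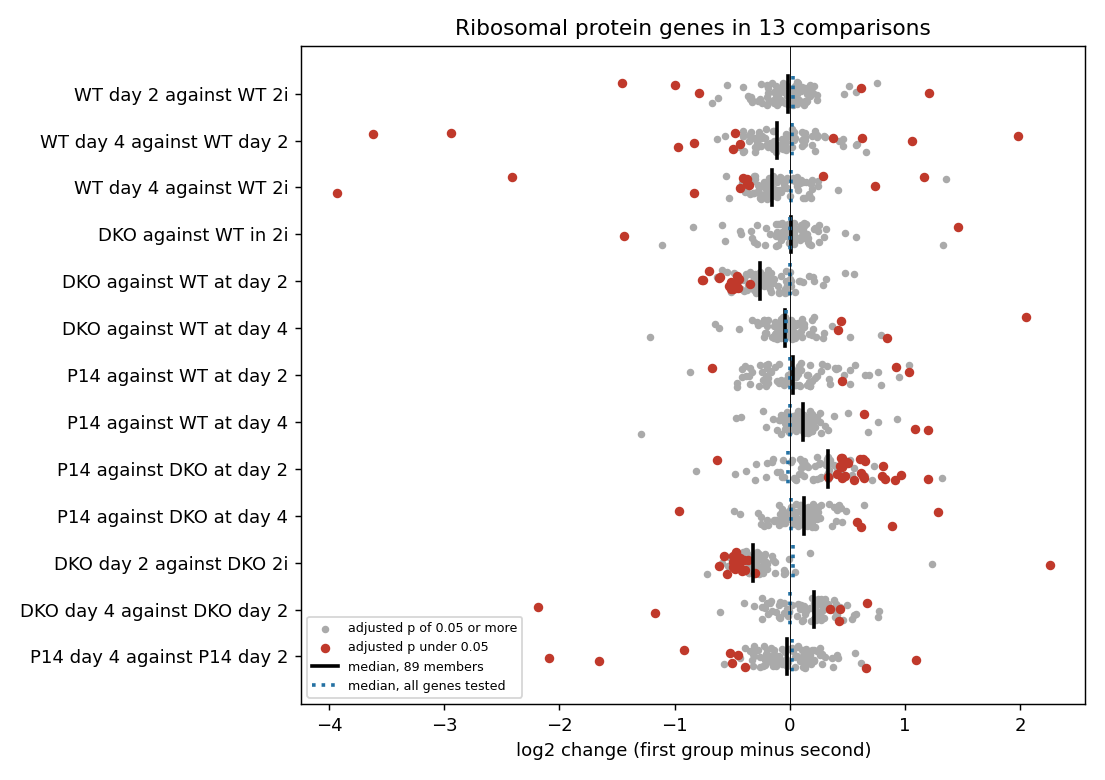
Log2 change (horizontal axis) of each of the 89 ribosomal protein genes (points) in the 13 comparisons of 2 groups, with members at an adjusted p under 0.05 in red, the members' median as a black bar and the median of all genes tested as a dotted bar. The members' median lies at -0.26 for DKO against WT at day 2, at -0.32 for DKO day 2 against DKO 2i and at 0.33 for P14 against DKO at day 2; the widest single changes belong to Rpl10l and Rpl39l.

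Rpl10l, on chr12, gave the deepest fall from 2i to day 4 in WT (-3.93 ± 0.15, SE, log2; limma adjusted p = 1.4e-11). It read 1326 and 1122 normalized counts in 2i, 589.8 and 635 at day 2 and 71.2 and 87.6 at day 4, with no overlap between stages. The change was -0.99 ± 0.15 (SE, log2) from 2i to day 2 (limma adjusted p = 0.00013), and -2.94 ± 0.15 from day 2 to day 4 (limma adjusted p = 1.16e-09). Its X-linked counterpart Rpl10 read 7084 and 7099, 8434 and 7354 and 5752 and 6165 at the same stages and was not called. Rpl10l made up 11.9% ± 1.3 (SD, n = 2) of the pair's level per transcript length in 2i, 5.75% ± 0.81 (SD, n = 2) at day 2 and 1.03% ± 0.099 (SD, n = 2) at day 4.

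Rpl39l, on chr16, rose before it fell. It read 268 and 188 in 2i, 467 and 579 at day 2 and 45.3 and 37.9 at day 4. The rise was 1.21 ± 0.27 (SE, log2; limma adjusted p = 0.00392), with 0.95 without WT 2i replicate 2 and 1.06 without WT day 2 replicate 2, where the adjusted p passed 0.05. The change from day 2 to day 4 was -3.62 ± 0.27 (limma adjusted p = 7.99e-08). Rpl39, which encodes a small protein lining the exit tunnel of the ribosome, read 2451 and 1144, 2548 and 2117 and 2354 and 1308 and was not called. Rpl39l was 20.1% ± 4.5 (SD, n = 2) of the pair's level per transcript length at day 2 and 2.61% ± 0.73 (SD, n = 2) at day 4.

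Among the other paralogs, Rpl7l1 read 5180.2 and 5456 at day 2 and 3007 and 2963 at day 4, a log2 change from 2i of -0.83 ± 0.13 (SE, limma adjusted p = 7.99e-05). Rps4l, an intronless copy of Rps4x, read 7918 and 7249.7 in 2i, 12904 and 10412 at day 2 and 6137 and 5695 at day 4. Its rise to day 2 was 0.61 ± 0.13 (SE, limma adjusted p = 0.0032; 0.46 without WT day 2 replicate 1, not called), and its change from there to day 4 was -0.97 ± 0.13 (limma adjusted p = 4.58e-05). Rps27l, known as a gene induced by p53, read 562 and 532 in 2i and 1169.8 and 716 at day 4 (0.74 ± 0.26, limma adjusted p = 0.03). That call was lost at 0.78 without WT 2i replicate 1, 0.70 without WT 2i replicate 2 and 0.39 without WT day 4 replicate 1. Rpl22l1 and Rpl3l, the paralog of Rpl3 known from striated muscle, were not called between WT stages. Rpl22l1 read 750.2 and 481, 486 and 572 and 529.9 and 474, and Rpl3l 19.2 and 15.2, 29.2 and 30.2 and 21.6 and 18.1.

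**Figure D3:**
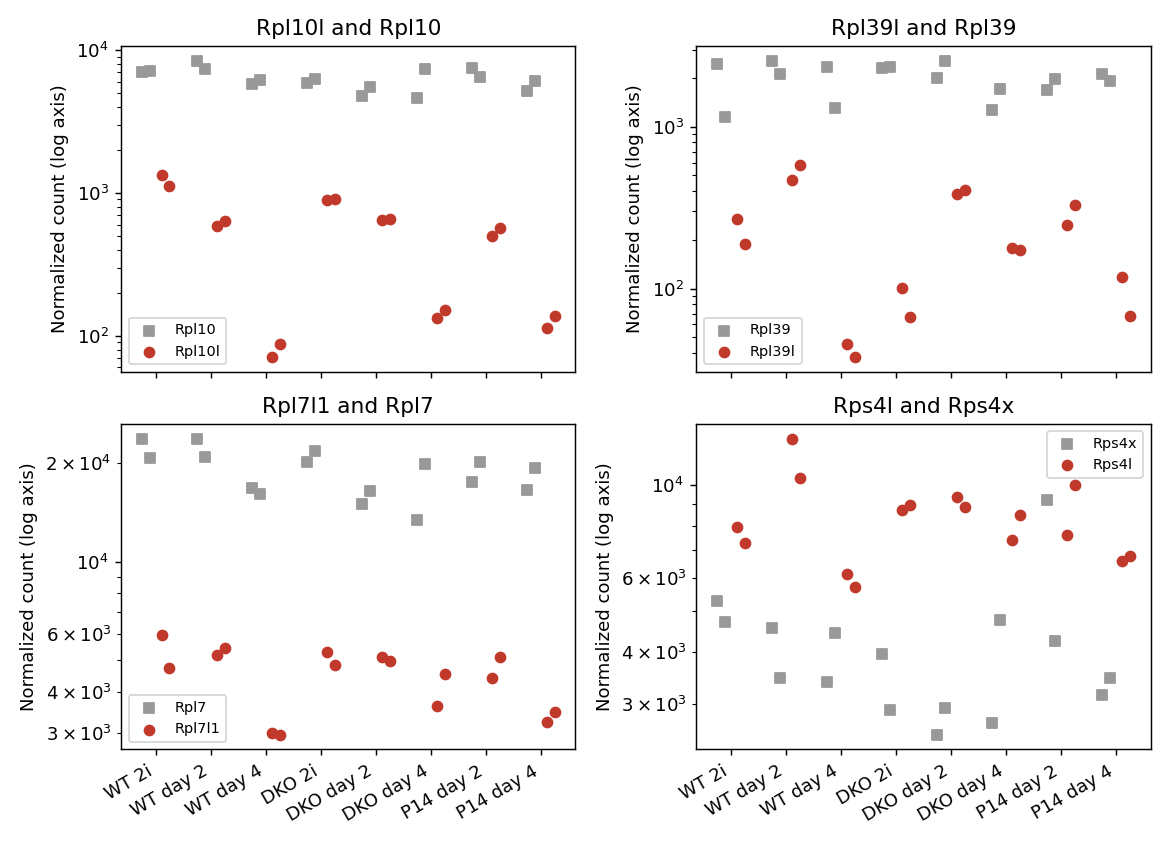
Normalized count (log axis) of 4 paralogs (circles) and the core genes they resemble (squares) in each of the 16 libraries, by group. Rpl10l spans 71.2 to 1326 and Rpl39l 37.9 to 579, while Rpl10 stays between 4591 and 8434 and Rpl39 between 1144 and 2559.

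Among core genes called in the wild-type course were members of both subunits. In the large subunit Rpl24 (-0.48 ± 0.13, SE, log2; limma adjusted p = 0.01) and Rpl15 (-0.43 ± 0.14, limma adjusted p = 0.0271) fell from day 2 to day 4, and Rpl7 from 2i to day 4 (-0.43 ± 0.16, limma adjusted p = 0.0448). These calls were lost at -0.42 without WT day 2 replicate 1, -0.47 without WT day 4 replicate 1 and -0.48 without WT day 4 replicate 2 for Rpl24, -0.32 without WT day 2 replicate 1, -0.40 without WT day 4 replicate 1 and -0.47 without WT day 4 replicate 2 for Rpl15, and -0.34 without WT 2i replicate 1, -0.53 without WT 2i replicate 2, -0.47 without WT day 4 replicate 1 and -0.40 without WT day 4 replicate 2 for Rpl7. Rpl15 and Rpl7 were also lost with scaling to library totals (-0.33 and -0.27), Rpl15 with its pseudogene entries added (-0.08) and Rpl7 with a pseudocount of 0.1. Rps28 read 11779 and 6414 in 2i, 3563 and 2822 at day 2 and 5537 and 7916 at day 4, a change of -1.45 ± 0.29 (SE, log2; limma adjusted p = 0.00178) and then of 1.06 ± 0.29 (limma adjusted p = 0.0112). The rise was not called at 0.89 without WT day 2 replicate 2 and 0.80 without WT day 4 replicate 2. Rps26, which lies at the mRNA exit channel, read 24201 and 21705, 16166 and 10852 and 16822 and 24699. Its change to day 2 was -0.79 ± 0.23 (SE, limma adjusted p = 0.0203; not called at -0.71 without WT 2i replicate 1, -0.87 without WT 2i replicate 2 and -0.50 without WT day 2 replicate 2) and to day 4 0.62 ± 0.23 (SE, limma adjusted p = 0.0495; not called at 0.33 without WT day 2 replicate 2 and 0.34 without WT day 4 replicate 2, with a pseudocount of 0.1, with scaling by median of ratios without these genes, or with the replicate block at adjusted p = 0.0569). Rps29 read 497 and 361 at day 2 and 4617 and 607 at day 4, and its change of 1.98 ± 0.57 (SE, limma adjusted p = 0.0145) rested on 1 library: it was 1.75 without WT day 2 replicate 2 and 0.52 without WT day 4 replicate 1, neither called. In the other 15 libraries Rps29 read 361 to 881. Rps16 was 0.29 ± 0.10 (SE) from 2i to day 4 (limma adjusted p = 0.039), and was not called at 0.20 without WT 2i replicate 1, 0.25 without WT day 4 replicate 1 and 0.33 without WT day 4 replicate 2, or at 0.08 when its pseudogene entries were added. Over the WT course the count of called members was 3 without WT day 2 replicate 2 from 2i to day 2 (8 in the fit of the compared groups alone), 7 without WT day 2 replicate 1 and 7 without WT day 4 replicate 2 from day 2 to day 4 (17 with limma-voom and 22 in the fit of the compared groups alone), and 7 without WT 2i replicate 1, 6 without WT 2i replicate 2, 5 without WT day 4 replicate 1 and 6 without WT day 4 replicate 2 from 2i to day 4.

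In 2i medium few of these genes were called between DKO and WT. Of the 89 members 1 was higher and 1 lower in DKO (2.25%, background 8.67%), and the median log2 change was 0.01. Rpl39l read 101 and 66.5 in DKO against 268 and 188 in WT. The difference was -1.44 ± 0.27 (SE, log2; limma adjusted p = 0.0034), with -1.19 without WT 2i replicate 1 and -1.15 without DKO 2i replicate 2, neither called. Rpl10l read 897 and 913 against 1326 and 1122 and was not called (-0.43 ± 0.15, limma adjusted p = 0.0928). The higher member was Rps27a, described below with its pseudogene. The number of called members was 0 without DKO 2i replicate 2, 4 with limma-voom and 5 in the fit of the compared groups alone.

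At day 2 the ribosomal protein genes were lower in the DKO libraries across most of the set. 75 of 89 had a lower mean log2 value in DKO than in WT, and the median log2 change was -0.26, against 0.001 over all genes tested and -0.05 over genes with a mean of at least 1000. 15 members passed the test, all lower (16.9%, background 12.6% in both directions); of all genes tested 6.64% were called lower, and of genes with a mean of at least 1000 11.2%. They comprised 11 large subunit and 4 small subunit members, and included Rplp0, Rplp1 and Rplp2, the proteins of the stalk that recruits translation factors. Called members also included Rps2, Rpl13, Rpl10, Rps19, Rpl12, Rpl13a, Rpl7a, Rps12l1, Rpl6, Rps3 and Rpl10a. Apart from Rps2, Rpl13 and Rpl10, the members named here changed by -0.61 to -0.35 on the log2 scale. Of the 77 core genes 45 had their lowest group mean over the 8 groups at DKO day 2, and 0 their highest. This count rests on the same 2 DKO libraries for every gene and on the main scaling, and the like share of all genes is not given here.

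Rps2 and Rpl13 were among the largest falls. Rps2, a core protein near the mRNA entry channel, read 79409.7 and 62122 in WT and 42671 and 40577 in DKO (-0.76 ± 0.19, SE, log2; limma adjusted p = 0.0166). Rpl13 read 64495 and 53453 against 33291 and 39300.3 (-0.70 ± 0.17, limma adjusted p = 0.0106). In each of these both DKO libraries were below both WT libraries. Rpl10, the X-linked core gene, read 4811 and 5489 against 8434 and 7354 and was called lower (-0.62 ± 0.17, limma adjusted p = 0.0253; with its pseudogene entries added -0.39, adjusted p = 0.102), while Rpl10l at 651 and 652 against 589.8 and 635 was not called (0.09 ± 0.15, limma adjusted p = 0.768). None of the 7 paralogs was called in the limma fit, and Rpl39l read 385 and 405 against 467 and 579.

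The falls at day 2 were not even over the set. Among the 39 core genes with the higher mean levels, 12 were called lower with a median of -0.35, and among the other 38, 2 were called with a median of -0.19. Among the 43 members with under 20% of stretches shared, counted over all annotated transcripts, 4 were called lower, with a median of -0.19. Adding to each member the pseudogene entries named after it gave 14 calls and a median of -0.24.

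The size of the day 2 difference depended on the scaling, the fit and single libraries. With each library scaled to the total of its named entries the members' median was -0.15, while that of all genes tested moved to 0.11, and 6 members were called. By contrast 24 were called with limma-voom on recovered reads and 26 in the fit of the compared groups alone. The shares of all genes called under these settings are not given here, so these counts have no like share beside them. With 1 library left out, the number called became 0 without WT day 2 replicate 1, 8 without WT day 2 replicate 2, 0 without DKO day 2 replicate 1 and 4 without DKO day 2 replicate 2, with members' medians from -0.35 to -0.18. The calls of Rps2 and Rpl13 were lost at -0.58 without WT day 2 replicate 1, -0.79 without DKO day 2 replicate 1 and -0.72 without DKO day 2 replicate 2 for Rps2, and -0.56 without WT day 2 replicate 1 and -0.58 without DKO day 2 replicate 1 for Rpl13. Rpl10 was lost at -0.52 without WT day 2 replicate 1, -0.71 without WT day 2 replicate 2, -0.52 without DKO day 2 replicate 1 and -0.71 without DKO day 2 replicate 2.

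**Figure D4:**
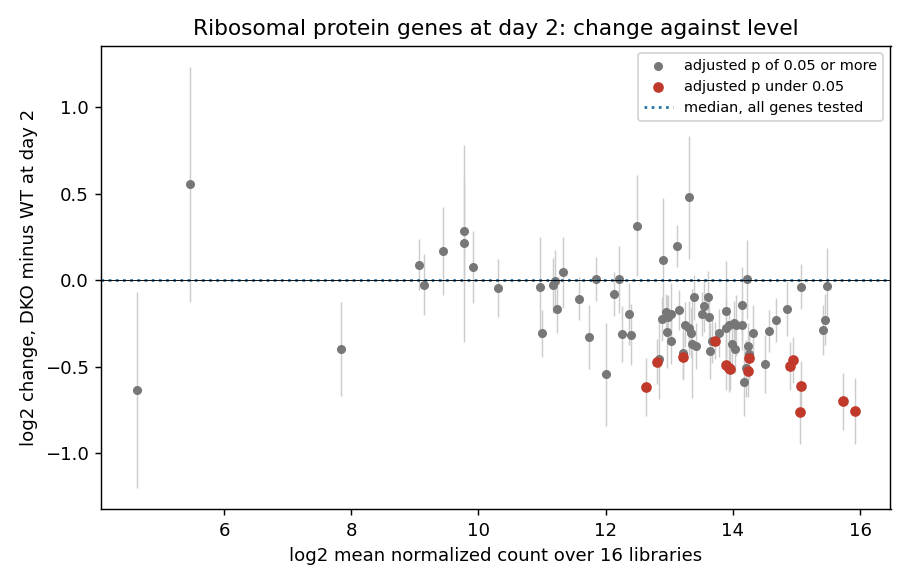
Log2 change between DKO and WT at day 2 (vertical axis, with SE bars) of each ribosomal protein gene against its log2 mean normalized count over 16 libraries (horizontal axis). The 15 members at an adjusted p under 0.05 (red) lie between -0.76 and -0.35, and the dotted line marks the median of all genes tested, 0.001.

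At day 4 the called members were paralogs. 4 members were higher in DKO and 0 lower (4.49%, background 13.8% in both directions and 6.95% higher), and the median was -0.04. All 4 are paralogs, Rpl39l, Rpl10l, Rpl7l1 and Rps4l, and 0 of the 77 core genes were called by limma. Rpl39l read 177 and 173 in DKO against 45.3 and 37.9 in WT (2.05 ± 0.27, SE, log2; limma adjusted p = 8.52e-05). Rpl10l read 134 and 151 against 71.2 and 87.6 (0.84 ± 0.15, limma adjusted p = 0.00114), and in the fit of the compared groups alone its adjusted p was 0.0617. Rpl7l1 read 3615 and 4549 against 3007 and 2963 (0.44 ± 0.13, limma adjusted p = 0.0306), and was not called at 0.45 without WT day 4 replicate 1, 0.43 without WT day 4 replicate 2 and 0.28 without DKO day 4 replicate 2, with scaling to library totals (0.40), or in the fit of the compared groups alone (adjusted p = 0.0732), where Rpl39l was the 1 member called. The called members numbered 2 without WT day 4 replicate 1 and 7 without DKO day 4 replicate 2. Rps4l read 7407 and 8465 against 6137 and 5695 (0.42 ± 0.13, limma adjusted p = 0.0477), and was not called at 0.47 without WT day 4 replicate 1, 0.37 without WT day 4 replicate 2, 0.52 without DKO day 4 replicate 1 and 0.33 without DKO day 4 replicate 2, with a pseudocount of 0.1, with scaling to library totals, in the fit of the compared groups alone, or with the replicate block (adjusted p = 0.0541). Rpl10l was 1.9% ± 0.46 (SD, n = 2) of its pair's level per transcript length at DKO day 4, and Rpl39l 11.7% ± 2.3 (SD, n = 2).

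Few of these genes were called between P14 and WT. At day 2, 3 members were higher and 1 lower (4.49%, background 8.38%), with a median log2 change of 0.03. Rps28 read 8204 and 5132 in P14 against 3563 and 2822 in WT (1.03 ± 0.29, SE, log2; limma adjusted p = 0.0397). Rps26 read 25171 and 24926 against 16166 and 10852 (0.92 ± 0.23, limma adjusted p = 0.0207). Rps23, a protein of the decoding centre, differed by 0.45 ± 0.12 (SE, limma adjusted p = 0.0272) and Rpl29 by -0.68 ± 0.17 (SE, limma adjusted p = 0.0215). None of the 4 kept its call in every fit without 1 library: Rps28 was 1.20 without WT day 2 replicate 1, 0.86 without WT day 2 replicate 2 and 0.69 without P14 day 2 replicate 1, Rps26 0.63 without WT day 2 replicate 2 and 0.91 without P14 day 2 replicate 1, Rps23 0.47 without WT day 2 replicate 1, 0.44 without WT day 2 replicate 2, 0.50 without P14 day 2 replicate 1 and 0.40 without P14 day 2 replicate 2, and Rpl29 -0.61 without WT day 2 replicate 1, -0.74 without WT day 2 replicate 2 and -0.42 without P14 day 2 replicate 1. Rps28 was also lost with a pseudocount of 0.1 and with the replicate block (adjusted p = 0.0515), Rps23 with scaling to library totals, Rpl29 with its pseudogene entries added, and Rps23 and Rpl29 in the fit of the compared groups alone. The number of called members was 1 without WT day 2 replicate 1, 1 without WT day 2 replicate 2, 1 without P14 day 2 replicate 1 and 9 without P14 day 2 replicate 2, and 9 with limma-voom.

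At day 4, 3 members were higher in P14 than in WT and 0 lower (3.37%, background 16.2% in both directions and 7.43% higher), with a median of 0.12. Rps27, a zinc-finger protein of the small subunit, read 20894 and 13191 in P14 against 5912 and 8852 in WT (1.20 ± 0.36, SE, log2; limma adjusted p = 0.0328). Rpl39l read 118 and 67.4 against 45.3 and 37.9 (1.09 ± 0.27, limma adjusted p = 0.0113), and Rpl10l 112 and 137 against 71.2 and 87.6 (0.65 ± 0.15, limma adjusted p = 0.00644). Both paralogs were higher in both P14 libraries. The calls were lost at 0.91 without WT day 4 replicate 1 and 0.87 without P14 day 4 replicate 1 for Rps27, 0.96 without WT day 4 replicate 2 and 0.69 without P14 day 4 replicate 1 for Rpl39l, and 0.50 without WT day 4 replicate 1 and 0.50 without P14 day 4 replicate 2 for Rpl10l. Both paralogs also missed the threshold with limma-voom on the recovered reads (adjusted p = 0.0705 and 0.0819) and in the fit of the compared groups alone, and Rps27 did with scaling to library totals. With 1 library left out, the number called became 1 without WT day 4 replicate 1.

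Set against each other at day 2, P14 libraries were higher than DKO libraries in many members. 24 were higher in P14 and 1 lower (28.1%, background 15.9%), and 7.86% of all genes were called higher. The median log2 change was 0.33 over the members and -0.01 over all genes tested. This comparison shares its DKO libraries with the comparison with WT at day 2. Rps4x read 9202 and 4245 in P14 and 2535 and 2926 in DKO (1.20 ± 0.30, SE, log2; limma adjusted p = 0.0124), with 1 P14 library far above the other. Rpl23 read 15581 and 21776 against 8283 and 10711 (0.97 ± 0.29, limma adjusted p = 0.0344), and Rps26 25171 and 24926 against 10778 and 16397 (0.91 ± 0.23, limma adjusted p = 0.0129). The lower member was Rpl29, at 743 and 1066 against 1311 and 1452 (-0.63 ± 0.17, limma adjusted p = 0.0191).

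These day 2 calls between P14 and DKO also leaned on single libraries. Rps4x was 1.09 without DKO day 2 replicate 1 and 0.64 without P14 day 2 replicate 1, Rpl23 0.78 without DKO day 2 replicate 1, 1.15 without DKO day 2 replicate 2 and 0.73 without P14 day 2 replicate 2, Rps26 0.61 without DKO day 2 replicate 1 and 0.91 without P14 day 2 replicate 1, and Rpl29 -0.70 without DKO day 2 replicate 1, -0.56 without DKO day 2 replicate 2 and -0.37 without P14 day 2 replicate 1, none called. Rps4x and Rpl29 were also lost in the fit of the compared groups alone, and Rpl23 with scaling to library totals. The called members numbered 5 without DKO day 2 replicate 1 and 14 without P14 day 2 replicate 1, 15 with scaling to the total of named entries and 11 in the fit of the compared groups alone.

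At day 4, 4 members were higher in P14 than in DKO and 1 lower (5.62%, background 13.4%). Rps27 read 20894 and 13191 against 10143 and 4578 (1.28 ± 0.36, SE, log2; limma adjusted p = 0.0265). Rps20, another small subunit protein, read 20410.4 and 29168 against 10823 and 16063 (0.89 ± 0.22, limma adjusted p = 0.0126). Rpl39l was lower in P14, with a log2 difference of -0.96 ± 0.27 (SE, limma adjusted p = 0.0269). None of these 3 was called in the fit of the compared groups alone, nor at 0.71 without DKO day 4 replicate 2 and 0.95 without P14 day 4 replicate 1 for Rps27, 0.60 without DKO day 4 replicate 1 and 0.63 without P14 day 4 replicate 2 for Rps20, and -0.95 without DKO day 4 replicate 1, -0.98 without DKO day 4 replicate 2 and -0.56 without P14 day 4 replicate 2 for Rpl39l. The number of called members was 2 without DKO day 4 replicate 1, 8 without DKO day 4 replicate 2 and 1 without P14 day 4 replicate 2, 8 with limma-voom and 0 in the fit of the compared groups alone.

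Within the libraries labelled DKO, the step from 2i to day 2 lowered 20 members and raised 1 (23.6%, background 21.5%); 9.15% of all genes were called lower. 85 of 89 had a lower mean, with a median log2 change of -0.32 against 0.02 over all genes. The member that rose was Rpl39l, from 101 and 66.5 to 385 and 405 (2.26 ± 0.27, SE, log2; limma adjusted p = 1.68e-05). Rps2 fell from 61842 and 65650.2 to 42671 and 40577 (-0.61 ± 0.19, limma adjusted p = 0.0312), and was not called at -0.66 without DKO 2i replicate 1, -0.57 without DKO 2i replicate 2, -0.65 without DKO day 2 replicate 1 and -0.58 without DKO day 2 replicate 2. Rps3a2 and Rps3a3, both annotated as pseudogenes of Rps3a1, fell by 0.57 and 0.55 on the log2 scale (limma adjusted p = 0.00984 and 0.0101). They were not called at -0.49 without DKO 2i replicate 2 and -0.53 without DKO day 2 replicate 1 for Rps3a2, and -0.50 without DKO 2i replicate 2 and -0.48 without DKO day 2 replicate 1 for Rps3a3. With 1 library left out, the number called became 6 without DKO 2i replicate 1, 2 without DKO 2i replicate 2, 1 without DKO day 2 replicate 1 and 13 without DKO day 2 replicate 2, and 6 with scaling to the total of named entries, where the median was -0.19 and that of all genes 0.15. It was 32 with limma-voom and 38 in the fit of the compared groups alone. The shares of all genes called under these settings are not given here.

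From day 2 to day 4 in DKO, 4 members rose and 2 fell (6.74%, background 20.1%), with a median of 0.21. Rpl10l fell from 651 and 652 to 134 and 151 (-2.19 ± 0.15, SE, log2; limma adjusted p = 1.29e-07). Rpl39l fell from 385 and 405 to 177 and 173 (-1.17 ± 0.27, limma adjusted p = 0.00631), with -1.13 without DKO day 2 replicate 2, where its adjusted p was 0.0508. Rps12 rose from 12837 and 15224 to 21240.5 and 23257 (0.67 ± 0.16, limma adjusted p = 0.00818), together with Rps12l1, all of whose stretches are shared (0.44 ± 0.13, limma adjusted p = 0.0242), and Rps18 (0.42 ± 0.13, limma adjusted p = 0.0318). These 3 were not called at 0.55 without DKO day 2 replicate 1 and 0.60 without DKO day 4 replicate 2 for Rps12, 0.35 without DKO day 2 replicate 1 and 0.25 without DKO day 4 replicate 2 for Rps12l1, and 0.26 without DKO day 2 replicate 1, 0.46 without DKO day 4 replicate 1 and 0.39 without DKO day 4 replicate 2 for Rps18. Rps12l1 and Rps18 were also lost in the fit of the compared groups alone. The called members numbered 2 without DKO day 2 replicate 1, 16 without DKO day 4 replicate 1 and 10 without DKO day 4 replicate 2, 14 with limma-voom and 3 in the fit of the compared groups alone.

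From day 2 to day 4 in P14, 2 members rose and 7 fell (10.1%, background 22.5%), and the median was -0.03. Rpl10l fell from 496 and 569 to 112 and 137 (-2.09 ± 0.15, SE, log2; limma adjusted p = 1.57e-07), and Rpl39l from 247 and 326 to 118 and 67.4 (-1.66 ± 0.27, limma adjusted p = 0.000415). Rps4x fell by 0.92 on the log2 scale (SE 0.30, limma adjusted p = 0.0383), Rps27 rose by 1.09 (SE 0.36, limma adjusted p = 0.0393) and Rpl36a by 0.66 (SE 0.18, limma adjusted p = 0.0131). Those 3 were not called at -0.36 without P14 day 2 replicate 1, -0.85 without P14 day 4 replicate 1 and -0.98 without P14 day 4 replicate 2 for Rps4x, 0.77 without P14 day 2 replicate 1 and 0.76 without P14 day 4 replicate 1 for Rps27, and 0.39 without P14 day 2 replicate 1, 0.67 without P14 day 4 replicate 1 and 0.65 without P14 day 4 replicate 2 for Rpl36a. Rps4x and Rps27 were also lost with a pseudocount of 0.1, and Rps4x and Rpl36a in the fit of the compared groups alone. The number of called members was 4 without P14 day 2 replicate 1, 3 without P14 day 4 replicate 1 and 4 without P14 day 4 replicate 2, and 3 in the fit of the compared groups alone.

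Interaction terms tested whether a difference from WT changed between stages. For DKO between 2i and day 2, 0 of 89 members passed the limma test (3.73% of all genes did). Limma-voom on recovered reads called 1, and the median interaction was -0.30 against 0.01 over all genes. At an unadjusted p under 0.05 in the limma fit there were 19 members, and the like share of all genes is not given here. Of these, Rpl10l, Rpl39l and Rps28 had positive terms (0.52, 1.05 and 1.16) and the others negative ones. The day 2 fall in DKO is therefore not shown to differ from the 2i difference for any single member in that fit; the number called was 2 without WT 2i replicate 1 and 1 without WT day 2 replicate 1, and 2 in the fit of the compared groups alone.

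For DKO between 2i and day 4, 3 members passed (3.37%, background 9.76%). Rpl39l changed by 3.49 ± 0.38 (SE, log2; limma adjusted p = 2.52e-05), from lower than WT in 2i to higher at day 4. Rpl10l changed by 1.27 ± 0.21 (SE, limma adjusted p = 0.000896), and both calls held in each of the 8 fits without 1 library. Rps27a changed by -1.66 ± 0.50 (SE, limma adjusted p = 0.0481), with -1.35 without WT 2i replicate 2, -1.52 without WT day 4 replicate 1, -1.81 without WT day 4 replicate 2, -1.71 without DKO 2i replicate 1, -1.61 without DKO 2i replicate 2 and -1.41 without DKO day 4 replicate 1, none called, and was also lost with a pseudocount of 0.1. With 1 library left out, the number called became 5 without WT 2i replicate 1 and 7 without DKO day 4 replicate 1.

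For P14 between day 2 and day 4, 3 members passed (3.37%, background 5.43%). Rpl39l changed by 1.96 ± 0.38 (SE, log2; limma adjusted p = 0.00603), a call that held without each library. Rpl10l changed by 0.85 ± 0.21 (SE, limma adjusted p = 0.0263) and Rps28 by -1.497 ± 0.41 (SE, limma adjusted p = 0.0485). These were not called at 0.90 without WT day 2 replicate 1, 0.80 without WT day 2 replicate 2, 0.70 without WT day 4 replicate 1, 0.75 without P14 day 2 replicate 1 and 0.71 without P14 day 4 replicate 2 for Rpl10l, and -1.67 without WT day 2 replicate 1, -1.33 without WT day 2 replicate 2, -1.24 without WT day 4 replicate 2, -1.16 without P14 day 2 replicate 1, -1.34 without P14 day 4 replicate 1 and -1.65 without P14 day 4 replicate 2 for Rps28. Rpl10l was also above the threshold with scaling to library totals, with limma-voom and in the fit of the compared groups alone, and Rps28 with a pseudocount of 0.1 and with the replicate block (adjusted p = 0.0608). The called members numbered 1 without WT day 2 replicate 1, 1 without P14 day 2 replicate 1, 8 without P14 day 2 replicate 2 and 1 without P14 day 4 replicate 2.

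Rps27a, which encodes a fusion of ubiquitin to a small subunit protein, varied opposite to the pseudogene entry Rps27a-ps2 in some libraries. In WT Rps27a read 5857 and 3822 in 2i, 4100.0 and 12119 at day 2 and 11708 and 9561 at day 4, and in DKO 2i 12584 and 13472. Rps27a-ps2 read 7276 and 7981, 10049 and 2253, 2057 and 4241 and 1722 and 1892 in the same libraries. In the 3 libraries where Rps27a was lowest Rps27a-ps2 was highest, and WT day 2 replicate 1 was one of them while replicate 2 was not. Over the 16 libraries Rps27a spanned 3.82-fold, Rps27a-ps2 8.67-fold and their sum 1.88-fold.

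Rps27a taken alone was higher at WT day 4 than in 2i (1.16 ± 0.35, SE, log2; limma adjusted p = 0.0156; not called at 0.85 without WT 2i replicate 2 and 1.01 without WT day 4 replicate 1). It was higher in DKO than in WT in 2i (1.46 ± 0.35, limma adjusted p = 0.0171; not called at 1.15 without WT 2i replicate 2, 1.51 without DKO 2i replicate 1 and 1.41 without DKO 2i replicate 2). With the pseudogene entries added these differences were 0.15 (limma adjusted p = 0.52) and 0.25 (limma adjusted p = 0.445), and the interaction between 2i and day 4 was -0.49 (limma adjusted p = 0.231). Changes of Rps27a and the division of reads between both entries cannot be told apart.

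**Figure D5:**
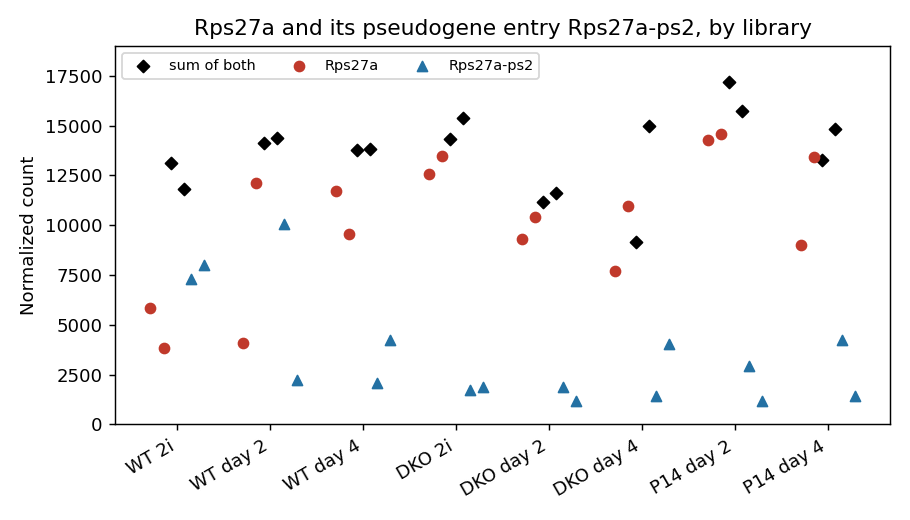
Normalized count (vertical axis) of Rps27a (circles), the pseudogene entry Rps27a-ps2 (triangles) and their sum (diamonds) in each of the 16 libraries, by group. Rps27a spans 3822 to 14583 and Rps27a-ps2 1159 to 10049, and the sum lies between 9145 and 17212.

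Genes that encode ribosome components but fall outside the name rule were read beside the members. At day 2 Rack1, the scaffold protein on the small subunit head, had a mean of 27047 in DKO and 36420 in WT (-0.43 ± 0.13, SE, log2; limma adjusted p = 0.0419). Fau, which encodes a ubiquitin-like protein fused to a small subunit protein, differed by -0.26 ± 0.11 (limma adjusted p = 0.132) and was not called. From 2i to day 2 in DKO, Rack1 fell by 0.56 and Fau by 0.35 on the log2 scale (limma adjusted p = 0.00586 and 0.0298). The calls of genes outside the members were not recomputed without single libraries.

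Most listed ribosome biogenesis genes fell between day 2 and day 4 in WT, where 33.0% of all genes and 43.8% of genes with a mean of at least 1000 were called in both directions. From 2i to day 2, 5 of 45 had risen and 0 fallen, with a median of 0.05, where 23.4% of all genes were called in both directions. From day 2 to day 4, 0 of 45 listed ribosome biogenesis genes rose and 36 fell, with a median of -0.58, while the 89 members had a median of -0.11 and 7 falls. Rrn3, an initiation factor of RNA polymerase I, fell from a mean of 2035 to 828 (-1.30 ± 0.18, SE; limma adjusted p = 5.12e-05), and Rrp9, a protein of the snoRNP that processes pre-rRNA, from 4019 to 1678 (-1.26 ± 0.09, limma adjusted p = 6.17e-08). Of 36 translation factors 13 fell and 0 rose, with Eif4a1 among those that fell (-0.85 ± 0.12, limma adjusted p = 5.75e-05). Of 78 mitochondrial ribosomal protein genes 40 fell and 3 rose. From WT 2i to day 4 the falls were 36 of 45, 13 of 36 and 36 of 78. There 40.6% of all genes and 49.1% of genes with a mean of at least 1000 were called in both directions. The biogenesis list is above both of these shares. For both comparisons the share of all genes that fell is not given here, so the falls of the other lists have no like share beside them. The difference between these lists and the members was not tested.

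In DKO against WT at day 2, 14 of 45 biogenesis genes were called lower and 0 higher, with a median of -0.23, where 6.64% of all genes and 11.2% of those with a mean of at least 1000 were called lower. Ddx21, a nucleolar helicase, had a mean of 7935 in DKO and 11943 in WT (-0.59 ± 0.10, SE, log2; limma adjusted p = 0.000912), and Npm1, a nucleolar chaperone, 12428 and 18900 (-0.60 ± 0.18, limma adjusted p = 0.0383). Of the translation factors 1 of 36 was lower, Eef1d (-0.57 ± 0.12, limma adjusted p = 0.00397), and of mitochondrial ribosomal protein genes 7 of 78, a share between these values, with a median of -0.11. At day 4, 10 of 45 biogenesis genes were higher in DKO and 0 lower, where 6.95% of all genes were called higher, among them Rrn3 (0.95 ± 0.18, limma adjusted p = 0.00208), while 0 of 77 core ribosomal protein genes were called. In P14 against WT the biogenesis list had 1 higher and 3 lower of 45 at day 2, where 8.38% of all genes were called in both directions. At day 4 it had 4 higher and 0 lower, where 16.2% of all genes were called in both directions and 7.43% higher.

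Regulators known to act on ribosome production were read beside the members. Myc had means of 900 in WT 2i, 2418 at day 2 and 578 at day 4, and was lower in DKO at day 2 (-0.40 ± 0.12, SE, log2; limma adjusted p = 0.0407) and higher at day 4 (1.502 ± 0.12, limma adjusted p = 4.8e-07). Of 21 listed genes of the mTOR, Larp1 and S6 kinase group, 4 were lower and 0 higher in DKO at day 2. At that stage 6.64% of all genes and 11.2% of those with a mean of at least 1000 were called lower. At day 4, 3 of the 21 were higher and 1 lower, where 6.95% of all genes were called higher. In both directions 12.6% and 13.8% of all genes were called at these days. Of 5 genes of the p53 checkpoint, 1 was higher and 0 lower in DKO at day 2, where 12.6% of all genes were called in both directions. The 163 pseudogene entries had 2 lower and 0 higher at that stage, with a median of 0.14, where 6.64% of all genes were called lower.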

How the data were processed

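RNA was read from 16 libraries in 8 groups of 2, grouped by their titles. The authors deposited log2 values, 1 per entry and library, which equal log2(normalized count + 4) with 1 scaling factor per library, as found from the deposited values: all values under 1000 reads came out as whole reads. Per the submitters' processing notes, Trim Galore, HISAT2 and featureCounts were used with mm10/GRCm38, and per the labels' protocols the library kit was stranded. Not given in the sources used here are the annotation, the strand setting, the handling of reads with several places and the scaling method. Of 22122 entries 667 had no gene name; they held 7.61% to 11.1% of the recovered reads and were not tested. Depth was 20696341 to 32710591 recovered reads per library.

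Normalized counts were recovered, and log2(value + 1) of genes at 1 or more in at least 2 libraries was fitted with limma 3.58.1 (trended variance, R 4.3.3). All 16 libraries entered 1 model of 8 group means, and p-values were adjusted by Benjamini-Hochberg over all 21450 genes tested, with a threshold of 0.05. There were 16 comparisons, 13 between 2 groups and 3 interactions. Fold changes are on the log2(value + 1) scale, which understates changes of low genes. Tables and figures were made with Python 3.11.15, pandas 2.3.3, numpy 2.4.6 and matplotlib 3.10.9, and the fit was tested on simulated data. Alternatives covered scaling, pseudocount, filter, limma-voom on recovered reads, the groups compared alone, a replicate block and leaving out each library. Counts of called members under them are given without the share of all genes called there. Adding pseudogene entries to their members was chosen after seeing the data.

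In each comparison the text names the 3 largest rises and 3 largest falls among called members whose groups do not overlap, and besides these the paralogs with the core genes they resemble, the highest and lowest members per kilobase, and the leading called genes of other lists. Rpl24, Rpl15, Rpl7, Rpl10, Rps29's libraries and Rps27a-ps2 were singled out after their values were seen. Members and lists were chosen with earlier results of these data known. Some items that the naming rule picks are not reported here.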

Additional observations from a re-analysis of the deposited data

Results flagged for a closer look

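Between 2i and day 4 the difference of DKO from WT changed in 3 members, by the interaction term of the limma fit. The change was 3.49 for Rpl39l (SE 0.38, limma adjusted p = 2.52e-05), 1.27 for Rpl10l (SE 0.21, limma adjusted p = 0.000896) and -1.66 for Rps27a (SE 0.50, limma adjusted p = 0.0481), on the log2 scale. For Rps27a the value with its pseudogene entries added was -0.49 (limma adjusted p = 0.231). Between day 2 and day 4 the difference of P14 from WT changed by 1.96 for Rpl39l (SE 0.38, limma adjusted p = 0.00603), 0.85 for Rpl10l (SE 0.21, limma adjusted p = 0.0263) and -1.497 for Rps28 (SE 0.41, limma adjusted p = 0.0485). Both sets of interactions share the WT day 4 libraries, in which Rpl39l read 45.3 and 37.9 normalized counts and Rpl10l 71.2 and 87.6.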

How the results depend on the processing

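With 2 libraries a group, counts of called members depended on single libraries: leaving out each in turn gave 3 to 5 for WT day 2 against WT 2i, 7 to 9 for WT day 4 against WT day 2, 5 to 7 for WT day 4 against WT 2i, 0 to 2 for DKO against WT in 2i, 0 to 8 for DKO against WT at day 2, 2 to 7 for DKO against WT at day 4, 1 to 9 for P14 against WT at day 2, 1 to 3 for P14 against WT at day 4, 5 to 17 for P14 against DKO at day 2, 1 to 8 for P14 against DKO at day 4, 1 to 13 for DKO day 2 against DKO 2i, 2 to 16 for DKO day 4 against DKO day 2, 3 to 9 for P14 day 4 against P14 day 2, 0 to 2 for DKO by stage, 2i to day 2, 2 to 7 for DKO by stage, 2i to day 4 and 1 to 8 for P14 by stage, day 2 to day 4. The members' median left the spread between libraries in that way for DKO against WT at day 4 (-0.177 to 0.072), P14 against DKO at day 4 (0.009 to 0.253), DKO day 4 against DKO day 2 (0.064 to 0.268) and DKO by stage, 2i to day 4 (-0.162 to 0.081). Of the checks of single genes with 1 library left out 161 kept their call and 151 lost it, and under the other settings 713 kept and 79 lost it; 0 changed sign. In the fit of the compared groups alone the counts that moved over 1.5 times were 8 for WT day 2 against WT 2i, 22 for WT day 4 against WT day 2, 5 for DKO against WT in 2i, 26 for DKO against WT at day 2, 1 for DKO against WT at day 4, 11 for P14 against DKO at day 2, 0 for P14 against DKO at day 4, 38 for DKO day 2 against DKO 2i, 3 for DKO day 4 against DKO day 2, 3 for P14 day 4 against P14 day 2, 2 for DKO by stage, 2i to day 2. With limma-voom on recovered reads they were 17 for WT day 4 against WT day 2, 4 for DKO against WT in 2i, 24 for DKO against WT at day 2, 9 for P14 against WT at day 2, 8 for P14 against DKO at day 4, 32 for DKO day 2 against DKO 2i, 14 for DKO day 4 against DKO day 2, 1 for DKO by stage, 2i to day 2. Scaling to the total of named entries gave 6 for DKO against WT at day 2, 15 for P14 against DKO at day 2, 6 for DKO day 2 against DKO 2i, and library size without these genes 7 for DKO against WT at day 2, 16 for P14 against DKO at day 2, 7 for DKO day 2 against DKO 2i; the all-gene medians then moved by 0.113 and 0.100, -0.135 and -0.120, and 0.146 and 0.130 in turn. Under these scalings the members' median for WT day 4 against WT 2i was 0.009 and 0.010. The all-gene median of that comparison under them is not given here. A pseudocount of 0.1 gave 3 for P14 against DKO at day 4. For DKO by stage, 2i to day 2, a pseudocount of 4, a filter of at least 10 in 2 libraries and adding pseudogene entries gave 1 each. With all entries in the denominator the members' share was 4.992% in WT 2i, 5.15% at WT day 2, 5.13% at WT day 4, 5.11% in DKO 2i, 4.37% at DKO day 2, 4.83% at DKO day 4 and 5.53% at P14 day 4; without mitochondrially encoded genes it was 5.778% in DKO 2i and 4.83% at DKO day 2. Over 28 pairs of groups the deviations of same-numbered libraries correlated at -0.093 to 0.163 (median 0.005), with 1 pair over 0.1. These values show no clear pairing by number, and they cannot exclude a culture or batch shared by same-numbered libraries. A replicate block gave 5, 12, 12, 2, 17, 3, 4, 3, 27, 5, 27, 6, 9, 0, 3 and 2 calls in the order above. The cause of these shifts was not tested, and the share of all genes called under each setting is not given here.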
